A study of Mus musculus with 4 samples.

Results

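The genes described here encode the exchangeable catalytic subunits of the 20S proteasome and the PA28 activator. They are 9 of the 31053 genes counted, and were chosen as a named list: the immunoproteasome subunits Psmb8, Psmb9 and Psmb10, their constitutive counterparts Psmb5, Psmb6 and Psmb7, and the activator genes Psme1, Psme2 and Psme2b. They were measured in single mouse cells of 4 libraries, made from brain and spleen at an aged and a young stage, with 1 library per group. Sorting had kept cells with much CD45, which marks leukocytes. The sources used here give neither ages in numbers nor the strain or the number of animals per library. The labels name for all 4 groups a tamoxifen injection made to follow tdTomato-positive NK cells, without the Cre line or promoter, and call all cells neuroblasts, a name that none of the clusters earned from its markers.

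Proteasomes cut proteins into peptides, some of which are shown to CD8 T cells on MHC class I molecules. Each of the 3 catalytic sites exists in a constitutive and an immune form: Psmb8 takes the place of Psmb5, Psmb9 that of Psmb6 and Psmb10 that of Psmb7, in cells of blood origin at rest and in other cells after interferon gamma. Psme1 and Psme2 encode the alpha and beta subunits of PA28, a ring that caps the core and is also raised by interferon gamma, and Psme2b is an intronless copy of Psme2.

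Unique molecular identifiers (UMIs), random tags that mark single RNA molecules, totalled 57011537 and 26384220 in the aged and young brain and 40628623 and 39866955 in the aged and young spleen, and 10963, 8150, 5332 and 6377 cells were kept, in this order. The young brain shared 4429 cell barcodes with the aged spleen, against 6.395 expected by chance and 7 to 41 for the other pairs of libraries. The 4754 young brain barcodes with more UMIs in the aged spleen (58.3%) were therefore left out, which left 3396 cells. Clusters were called "like" a cell type from marker lists, and 19 combinations of class and library had at least 50 cells. Levels are CPM, the UMIs of a gene per 1e6 UMIs of all cells of a class in 1 library. Since no group has a second library, nothing was tested: each difference is one between libraries, and all intervals are 95% intervals that cover counting error only. Barcodes of at most 100 UMIs, taken as a measure of free RNA, held Psmb8 at 218 and 190 CPM in the aged and young brain and at 218 and 348 CPM in the aged and young spleen. Such barcodes of the young brain were not filtered for UMIs in the aged spleen, so they can hold RNA shared with that library.

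In the mouse annotation (GRCm38), Psmb8 (ENSMUSG00000024338, chr17:34197721-34201454, plus strand) and Psmb9 (ENSMUSG00000096727, chr17:34181987-34187764, minus strand) lie on both sides of the peptide transporter gene Tap1, in the MHC class II region. Tap1 overlaps the 5′ end of Psmb9 head to head and ends 495 bases before Psmb8, and Tap2 begins 2072 bases after it. Psmb10 (chr8:105935735-105938444), Psmb5 (chr14:54614119-54618022), Psmb6 (chr11:70525367-70527858) and Psmb7 (chr2:38588036-38644087) are scattered, while Psme1 (chr14:55578123-55581529) and Psme2 (chr14:55587441-55591113) stand 5911 bases apart on opposite strands. Psme2b (ENSMUSG00000078153, chr11:48945354-48946190, minus strand) has 1 exon where Psme2 has 11, is tagged as a retrogene, and overlaps Gm12185 and 9930111J21Rik1 on the same strand. Reads of overlapping genes on 1 strand, and of near-identical copies, could be split by the counting, so levels of Psme2, Psme2b and these neighbours are uncertain.

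RefSeq promoters of GRCm38.p6, from 250 bases before to 50 after the start site, were searched on both strands for a pair of motifs, because the immune forms are known as interferon targets and the constitutive ones as targets of stress factors. TTCNNNGAA, the core of a gamma-activated site, occurs in 8.3% of the 32851 promoters, and TGACNNNGC, the core of an antioxidant response element, in 12.4%. The matches are shown with 10 bases on either side and the motif in capitals, in the order chr17:34198088-34198116 (plus), chr14:54618024-54618052 (minus) and chr11:70525338-70525366 (plus).
Psmb8, 97 bases before the start site: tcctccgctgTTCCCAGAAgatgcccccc
Psmb5, 47 bases before the start site: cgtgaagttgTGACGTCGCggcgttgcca
Psmb6, 9 bases before the start site: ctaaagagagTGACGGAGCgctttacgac
The windows of Psmb9, Psmb10, Psme1, Psme2 and Psme2b held neither motif on either strand, and Psmb7 had no entry. A longer interferon-response motif was also searched and is not reported here. Start sites are those of RefSeq and can lie away from the ends of the gene spans given above. The windows of Psmb8 (chr17:34197945-34198244), Psmb9 (chr17:34187281-34187580) and Psme1 (chr14:55578244-55578543) lie inside these spans. That of Psme2b (chr11:48946361-48946660) lies wholly outside its span. A match is a description of the sequence, and no binding was measured here.

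Psmb8 and Psmb9 were lowest in choroid-like and erythroid-like cells, and Psmb8 was highest in T-like cells of the aged brain and the young spleen (see the plot of levels by class and library). Psmb8, the chymotrypsin-like immune subunit, stood at 618 CPM (530 to 717) in T-like cells of the aged brain, 417 and 300 in T-like cells of the young and aged spleen, and 364 and 284 in NK-like cells of the young and aged spleen. B-like cells had 314 CPM in the young and 215 in the aged spleen, and border macrophage-like cells of the aged and young brain 334 and 320. Microglia-like cells of the aged brain had 219 CPM (212 to 226) and those of the young brain 216 (205 to 228). These microglial levels lie close to the free RNA of their libraries, and those of the T-like and border macrophage-like cells above it. B-like cells lay below the free RNA of the young spleen (314 against 348 CPM) and close to that of the aged spleen (215 against 218). NK-like cells lay close to it in the young spleen (364 against 348) and above it in the aged spleen (284 against 218). Choroid-like cells, epithelial cells that sorting for CD45 should remove, had 42.6 CPM (31.1 to 57), the lowest of all classes and well below the free RNA around them. Erythroid-like cells followed with 49.1. CPM is a share of all UMIs of a class, and the erythroid-like cluster was led by globin genes. The part of globin RNA in the low CPM of these cells was not tested.

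Psmb9, the caspase-like site's immune form, ranged from 7.02 CPM in erythroid-like and 11.4 in choroid-like cells to 140 in T-like cells of the young spleen. Microglia-like cells stood at 63.1 and 62.6 CPM in the aged and young brain, below border macrophage-like cells with 94.6 and 133. Psmb10, the trypsin-like site's immune form, had its highest levels in NK-like (184 CPM) and T-like (160) cells of the young spleen and T-like cells of the aged brain (180). It stood at 101 CPM in microglia-like cells of the aged brain and at 17.5 in erythroid-like cells.

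The constitutive subunits had another order. Psmb5 was highest in choroid-like cells (159 CPM, 136 to 185) and T-like cells of the aged brain (134), and Psmb6 in choroid-like (183 CPM, 158 to 210) and astrocyte-like cells (154). Microglia-like cells of the young brain had 146 CPM of Psmb6 and those of the aged brain 110. Psmb7 spanned 14.0 CPM in erythroid-like to 81.5 in choroid-like cells. Choroid-like cells thus had the lowest level of Psmb8 and the highest levels of Psmb5, Psmb6 and Psmb7.

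Psme1 stood at 264 CPM (256 to 272) in microglia-like cells of the aged brain, 325 in border macrophage-like, 260 in endothelial-like, 225 in mural-like and 213 in choroid-like cells. T-like cells of the aged brain had 474 CPM, border macrophage-like cells of the young brain 398 and neutrophil-like cells of the aged brain 128. Its lowest levels were in erythroid-like (70.2 CPM) and plasma-like cells (99). In plasma-like cells, however, 72.4% of all genes were at least 1.5-fold lower than in B-like cells of the aged spleen. The median of all genes was -1.152 (log2), so a low CPM there is not particular to Psme1. Psme2 ranged from 17.5 CPM in erythroid-like to 205 in T-like cells of the young spleen, with 106 and 119 in microglia-like cells of the aged and young brain. Choroid-like cells had 61.6 CPM of Psme2, and their summed PA28 to constitutive ratio, 0.673, was the lowest of the 19.

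**Figure D1:**
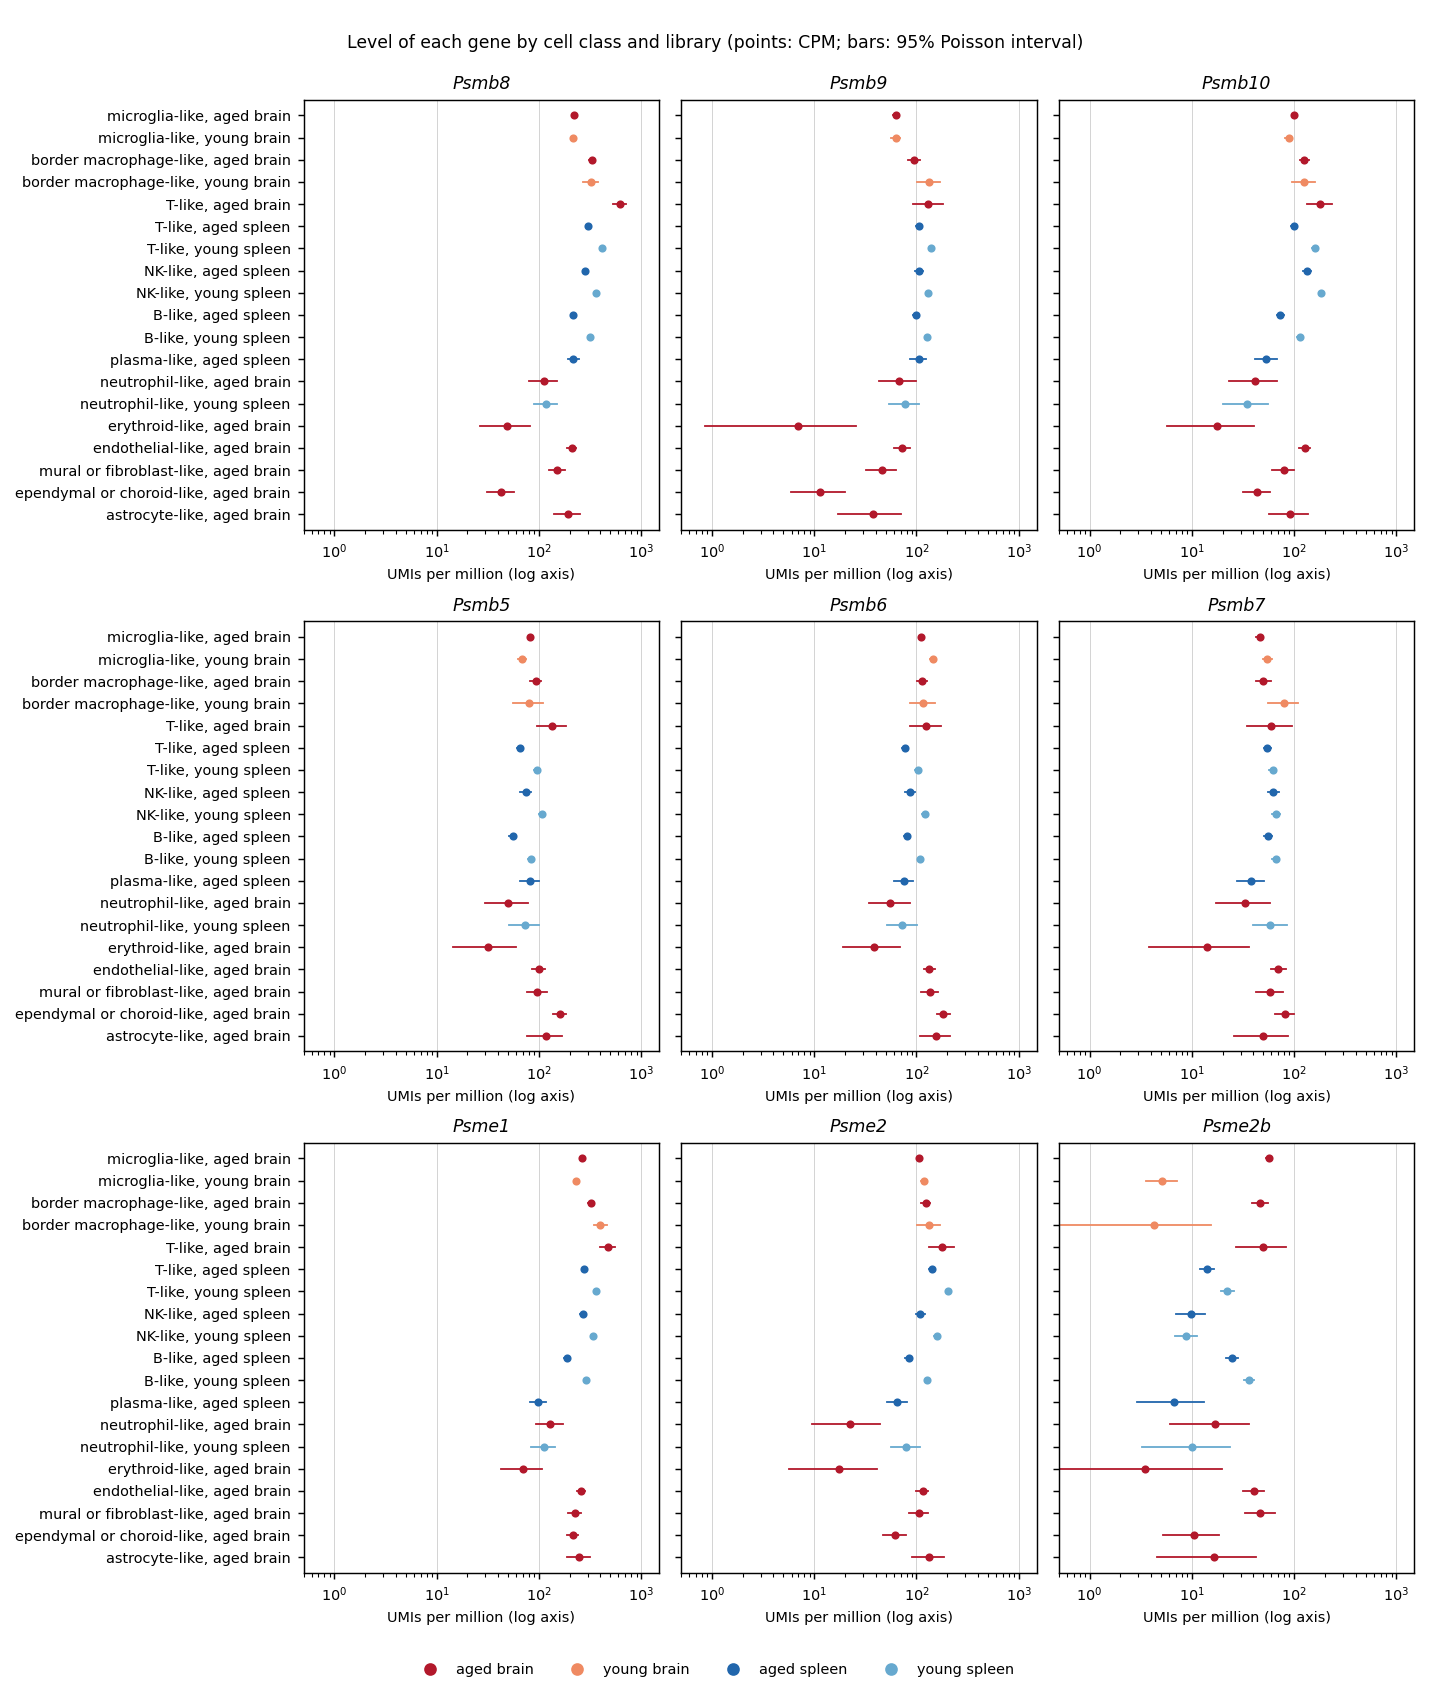
Level of each of the 9 genes (CPM, log axis) by cell class, with 95% Poisson intervals as bars and the 4 libraries in colour. Psmb8 runs from 42.6 CPM in choroid-like to 618 in T-like cells of the aged brain, and Psme2b of microglia-like cells differs between the 2 brain libraries (57.0 and 5.12).

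Ratios of an immune subunit to its counterpart in the same cells do not depend on the cells' total RNA. Since each gene is captured with its own efficiency, they were compared between classes and not with 1. Summed over the 3 sites, the ratio was highest in T-like cells, with 2.92 (2.29 to 3.75) in the aged brain, 2.75 (2.62 to 2.88) in the young spleen and 2.54 (2.42 to 2.68) in the aged spleen. NK-like cells followed with 2.35 and 2.31 in the aged and young spleen, border macrophage-like cells with 2.17 and 2.10 in the aged and young brain, and B-like cells with 2.14 and 2.03 in the young and aged spleen. Microglia-like cells of the aged brain had 1.60 (1.54 to 1.67), those of the young brain 1.36 (1.28 to 1.45), and endothelial-like cells 1.34 (1.21 to 1.5). At the low end were astrocyte-like (1.0), mural-like (0.953), erythroid-like (0.875) and choroid-like cells (0.230, 0.184 to 0.286). In this order of 19, intervals of neighbours overlapped throughout except between erythroid-like and choroid-like cells.

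The 3 sites did not move as 1. Psmb8/Psmb5 ran from 0.268 in choroid-like cells to 4.61 in T-like cells of the aged brain, with 2.66 and 3.13 in microglia-like cells of the aged and young brain. Psmb9/Psmb6 was 0.572 and 0.429 in microglia-like cells of the aged and young brain and 0.541 in endothelial-like cells, against 0.84 and 1.15 in border macrophage-like cells and 1.06 to 1.37 in T-like cells. Choroid-like cells had 0.0622. Psmb10/Psmb7 was 2.19 and 1.62 in microglia-like cells of the aged and young brain, 3.0 in T-like cells of the aged brain and 0.535 in choroid-like cells.

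**Figure D2:**
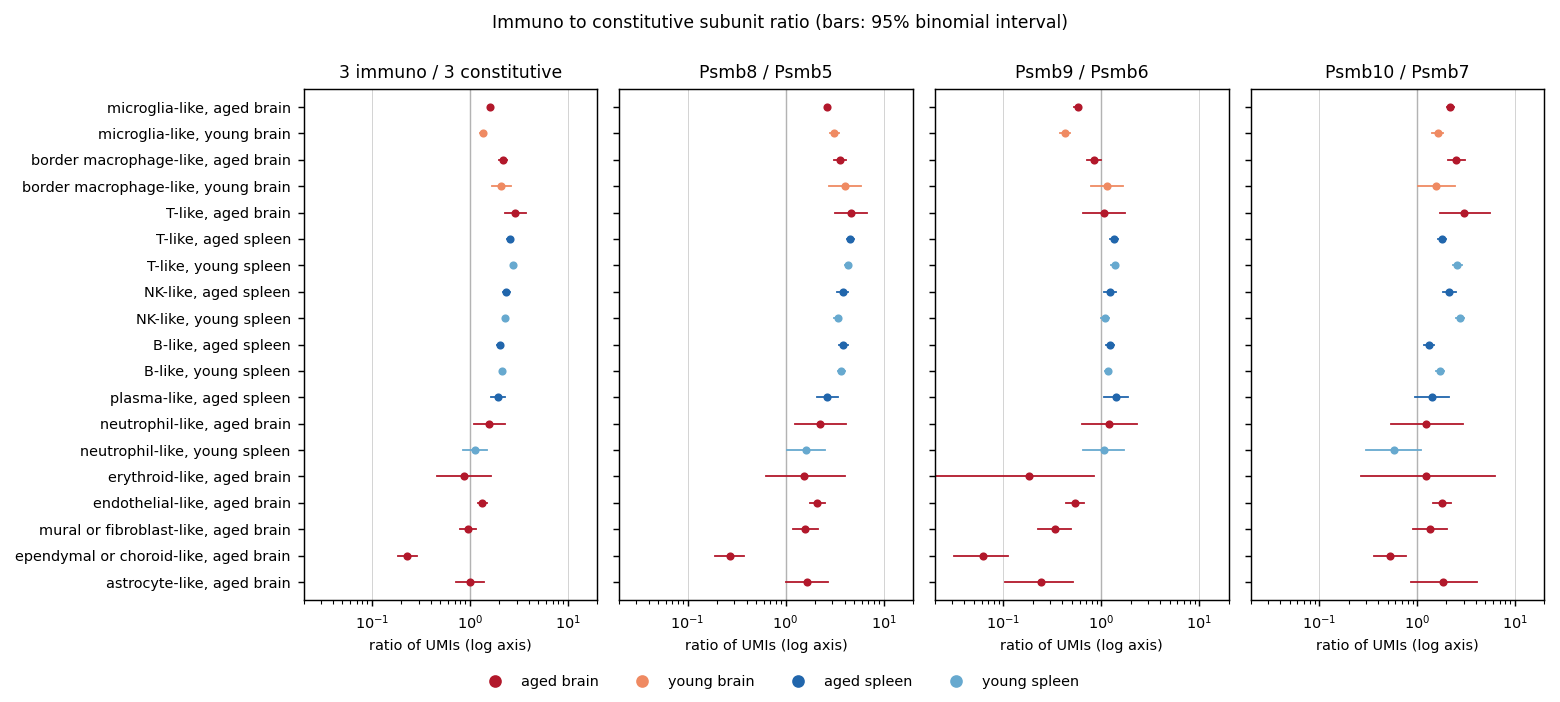
Ratio of UMIs (log axis) of each immune subunit to its constitutive counterpart and of the 3 summed, by class and library, with 95% binomial intervals as bars. T-like cells lie highest on the summed ratio (2.54 to 2.92) and choroid-like cells lowest (0.230).

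Detection per cell followed the same lines. Cells with at least 1000 UMIs were thinned to 1000 UMIs, and cells with fewer were left out of the thinned counts. At least 1 UMI of an immune subunit was then seen in 67.4% of T-like cells of the aged brain. The share was 31.2% and 30% in microglia-like cells of the aged and young brain. Choroid-like cells of the aged brain, a class that should hold little of these genes, gave 7.62% and erythroid-like cells 5.45%, with class medians of 958 and 4513 UMIs per cell against 2342 in microglia-like cells of that library. Without thinning, the shares were 91.3% in the T-like, 58.1% and 55.0% in the microglia-like, 23.3% in the choroid-like and 17.5% in the erythroid-like cells. UMIs of a constitutive subunit were seen in 33.3% of thinned choroid-like and 20.9% and 23.7% of thinned microglia-like cells. The thinned shares of choroid-like cells rest on 105 of 215 cells, while those without thinning use all cells of a class.

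In microglia-like cells the immune subunits were nearly level between the brain libraries, and Psme2b stood apart. Psmb8 was 1.01-fold (0.954 to 1.08) the young level in the aged brain, Psmb9 1.01-fold (0.899 to 1.13) and Psmb10 1.14-fold (1.04 to 1.25). Of the constitutive subunits, Psmb5 was 1.2-fold (1.07 to 1.33), Psmb6 0.757-fold (0.70 to 0.819) and Psmb7 0.844-fold (0.743 to 0.959). Psme1 was 1.14-fold (1.07 to 1.2) and Psme2 0.885-fold (0.813 to 0.964). Psme2b was 11.1-fold higher (7.91 to 16.2), with 939 UMIs or 57.0 CPM in the aged library and 34 UMIs or 5.12 CPM in the other. It was the 1 of 9 genes past 1.5-fold, where 17.3% of all genes with 50 or more UMIs in the pair of libraries were. The interval of the ratio lay above 1 for 4 members and below 1 for 3, against 29.8% and 18.6% of all genes.

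The summed immune to constitutive ratio of microglia-like cells was 1.18-fold higher in the aged brain (1.09 to 1.27). Psmb9/Psmb6 was 1.33-fold (1.16 to 1.53) and Psmb10/Psmb7 1.35-fold higher (1.15 to 1.58), while Psmb8/Psmb5 was 0.849-fold (0.749 to 0.961). The class lay in different clusters in the 2 libraries, however: cluster 0, led by Cx3cr1 and Tmem119, held 5987 aged and 86 young cells, and cluster 4, led by Lpl and Fcrls, 301 and 2650. Within cluster 0 the summed ratio was 0.916-fold (0.637 to 1.3) and within cluster 4 0.972-fold (0.799 to 1.19), both intervals holding 1. Psmb6 was 0.726-fold and 0.956-fold in these clusters, and Psme1 1.12-fold and 1.36-fold. Free RNA of the brain libraries also differed: the choroid marker list summed to 3883 CPM in microglia-like cells of the aged brain and 797 of the young, and its part in these ratios was not tested.

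Border macrophage-like cells, which live at the surfaces and vessels of the brain, were 962 of the aged and 196 of the young brain, all in cluster 7. Psmb8 was 1.04-fold, Psmb10 1.01-fold, Psmb5 1.18-fold and Psmb6 0.971-fold in the aged library, each with 1 inside its interval. Psmb9 was 0.710-fold (0.536 to 0.953), Psmb7 0.630-fold (0.435 to 0.934) and Psme1 0.817-fold (0.696 to 0.963). Psme2 was 0.937-fold, and Psme2b 10.9-fold higher (2.95 to 90.8), from 2 young UMIs. Past 1.5-fold were 2 of 9 genes, Psmb7 and Psme2b, against 27.8% of all genes. The count was 0 after thinning, but Psme2b then fell under the minimum of 50 UMIs and was not counted. Its thinned UMIs were 13 and 31 in aged cells with and without interferon-response RNA (a split described below). In young cells they were 0 and 1. The summed subunit ratio was 1.03-fold (0.812 to 1.3).

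**Figure D3:**
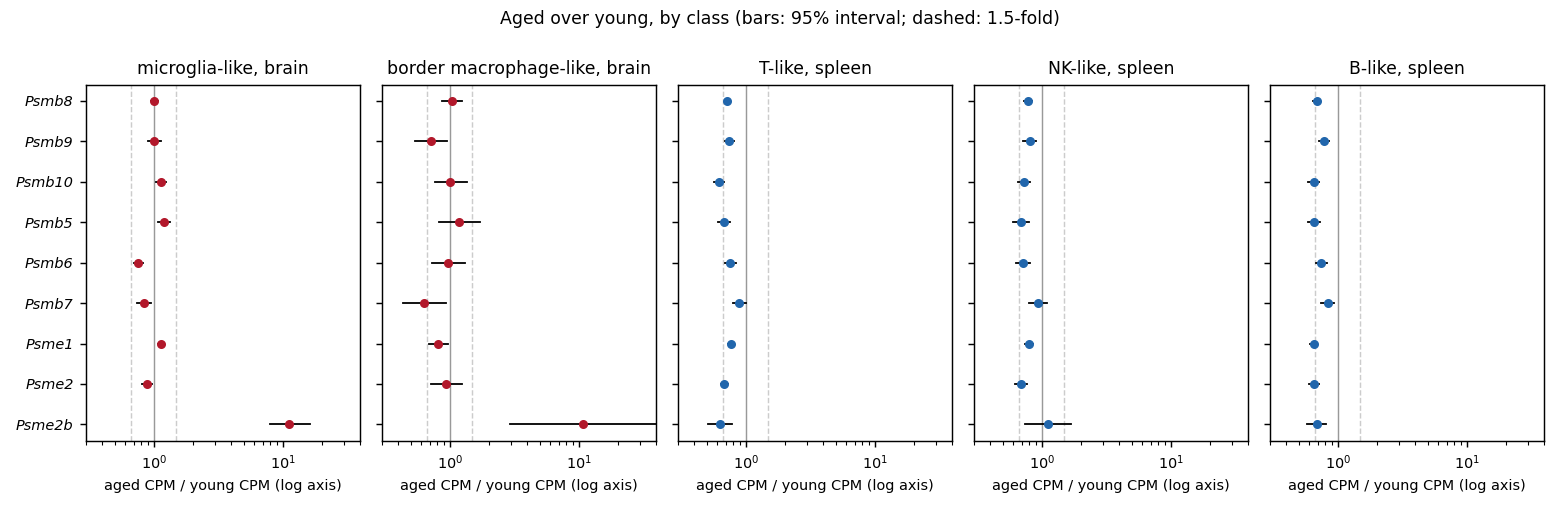
CPM in the aged over CPM in the young library (log axis) for each gene in 5 classes, with 95% intervals as bars and 1.5-fold as dashed lines. Psme2b lies past 10-fold in both brain classes (11.1 and 10.9), and nearly all points of the 3 spleen classes lie below 1.

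Psme2b was compared with its parent by sequence, since 3′ tags may not tell them apart. GENCODE release 21 gives transcripts of 795 bases for Psme2 and 837 for Psme2b, of which 766 bases pair and 746 are identical (97.4%). In the coding sequence 676 of 686 paired bases are identical (98.5%), leaving 10 mismatches. The last 220 paired bases, after the mismatch nearest to the 3′ end, are all identical, so a read that lies in them alone does not tell the genes apart. A stretch of 120 coding bases that holds the 3 mismatches nearest to the end of the coding sequence is shown, with mismatched bases in capitals (coding bases 410 to 529 of Psme2 and 434 to 553 of Psme2b).
Psme2: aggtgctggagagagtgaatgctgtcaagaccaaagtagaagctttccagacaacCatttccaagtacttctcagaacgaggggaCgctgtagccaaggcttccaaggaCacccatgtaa
Psme2b: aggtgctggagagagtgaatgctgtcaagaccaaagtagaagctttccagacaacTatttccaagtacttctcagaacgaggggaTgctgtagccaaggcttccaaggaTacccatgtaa

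Psme2b took 35.1% (33.2 to 36.9) of the UMIs of both genes in microglia-like cells of the aged brain and 4.12% (2.87 to 5.70) in those of the young brain. Within cluster 0 its level was 12.1-fold higher in the aged library, from 1 young UMI, and within cluster 4 8.84-fold (5.32 to 14.7). Border macrophage-like cells gave 27.6% and 3.17% in the aged and young brain. Every class of the aged brain with at least 50 cells had a share of at least 11.1%, the value of astrocyte-like cells. That value came from 4 UMIs of Psme2b and 32 of Psme2 (3.11 to 26.1), and the 16.7% of erythroid-like cells from 1 and 5 (0.421 to 64.1). Both intervals hold the shares of the young brain classes. Barcodes of at most 100 UMIs had 22.3% (16.4 to 29.2) in the aged and 3.37% (1.36 to 6.81) in the young brain. The difference between the brain libraries was thus also seen in free RNA, which in the young brain was not filtered for shared barcodes. In the spleen the ages lay close: T-like cells had 9.17% and 9.82% in the aged and young library, NK-like cells 8.32% and 5.26%, and B-like cells 23.0% and 22.1%. The overlapping gene 9930111J21Rik1 stood at 16.1 and 14.5 CPM in microglia-like cells of the aged and young brain, so it did not differ as Psme2b did. Summed over both genes, the level in microglia-like cells was 1.31-fold higher in the aged brain (1.21 to 1.41), and by Psme2 alone it was 0.885-fold.

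**Figure D4:**
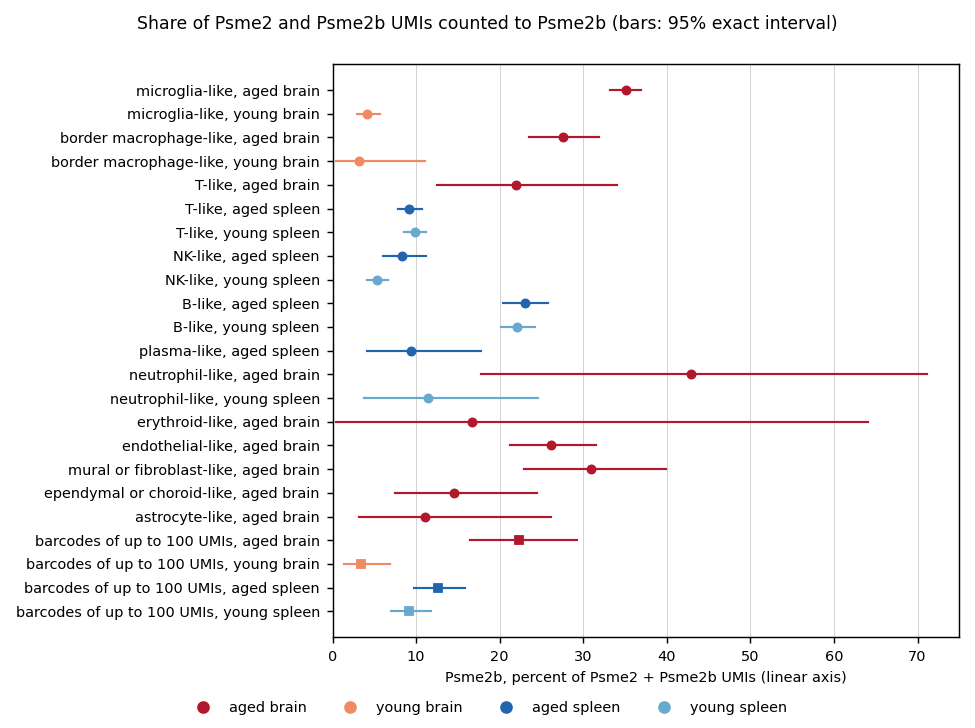
Share of the UMIs of Psme2 and Psme2b that were counted to Psme2b (percent, linear axis) by class and library and in barcodes of up to 100 UMIs, with 95% exact intervals. Classes of the aged brain lie at 11.1% or more, and both young brain classes under 5% (4.12% and 3.17%). The astrocyte-like and erythroid-like points rest on 4 and 1 UMIs of Psme2b.

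In the spleen the members were lower in the aged library in all 3 lymphocyte classes, except Psme2b in NK-like cells, and mostly by less than 1.5-fold. In T-like cells Psmb8 was 0.719-fold the young level (0.685 to 0.754), Psmb9 0.748-fold and Psmb10 0.621-fold (0.572 to 0.673). Psmb5 was 0.677-fold, Psmb6 0.758-fold, Psmb7 0.891-fold (0.791 to 1.0), Psme1 0.762-fold, Psme2 0.684-fold and Psme2b 0.634-fold. Psmb10 and Psme2b were past 1.5-fold, 2 of 9 against 8.72% of all genes that were that much lower. The count was 5 after thinning to 1000 UMIs per cell and 1 with median-of-ratios scaling. By the interval 8 of 9 members lay below 1 and none above, against 30.2% of all genes below.

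NK-like cells had Psmb8 at 0.781-fold, Psmb9 at 0.809-fold, Psmb10 at 0.730-fold, Psmb5 at 0.692-fold, Psmb6 at 0.722-fold, Psme1 at 0.799-fold and Psme2 at 0.689-fold. Intervals held 1 for Psmb7 (0.937-fold) and Psme2b (1.12-fold, 0.740 to 1.69). None of the 9 was past 1.5-fold, where 10.9% of all genes were lower by that much, and 7 intervals lay below 1, against 27.8% of all genes. In B-like cells all 9 intervals lay below 1, against 32.9% of all genes, from 0.649-fold for Psmb10 to 0.837-fold for Psmb7. Psmb8 was 0.686-fold, Psme1 0.652-fold, Psme2 0.654-fold and Psmb5 0.655-fold. Past 1.5-fold were Psmb10, Psmb5, Psme1 and Psme2, 4 of 9 against 9.32% of all genes. All 4 lay just past that fold, and the count was 0 with median-of-ratios scaling and 1 after thinning to 1000 UMIs per cell.

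Both subunit forms were lower together, so their ratio moved little. The summed ratio was 0.925-fold (0.863 to 0.993) in T-like, 1.02-fold (0.926 to 1.12) in NK-like and 0.948-fold (0.880 to 1.02) in B-like cells. Psmb10/Psmb7 was lower in each, with 0.697-fold (0.603 to 0.805), 0.779-fold (0.648 to 0.939) and 0.776-fold (0.665 to 0.906). The 3 classes come from the same pair of libraries and are not independent.

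Most members were also lower within clusters. Among the 8 T-, NK- and B-like clusters with at least 50 cells in both spleen libraries, Psmb8, Psmb5, Psmb6, Psme1 and Psme2 had a ratio under 1 in all 8, and Psmb9, Psmb10 and Psmb7 in 7. Psme2b had one in 5, and reached 2.63-fold (0.811 to 11.1) in cluster 22. Psmb10/Psmb7 was 1.05-fold (0.783 to 1.4) in cluster 19 and 1.68-fold (0.734 to 3.86) in cluster 22, where the summed ratio was 1.52-fold (1.07 to 2.15). Intervals of single members lay below 1 in 8 of 8 clusters for Psmb5, Psmb6 and Psme2, in 7 for Psmb8, Psmb10 and Psme1, in 6 for Psmb9, and in 3 for Psmb7 and Psme2b. Cluster 16, T-like cells led by Cxcr6, Art2b and Cd226, had Psme2 at 0.451-fold (0.361 to 0.558) and Psmb10 at 0.515-fold, with 168 aged and 600 young cells. In the young spleen it had 532 CPM of Psmb8, 420 of Psme1 and 263 of Psme2, against 330, 315 and 176 in cluster 19, which was led by Dapl1, Cd8b1 and Lef1.

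Other measures moved with age in the spleen. Free RNA had Psmb8 at 218 CPM in the aged library against 348, Psmb10 at 103 against 174, and Psme2 at 93.0 against 138, so it differed in the same direction. Median UMIs per T-like cell were 5783 in the aged library against 5079, and median mitochondrial shares 5.29% against 4.43%. The median of all genes was shifted by -0.089 (log2) in T-like, -0.120 in NK-like and -0.124 in B-like cells, and scaling by it left the direction of Psmb8, Psme1 and the sum of Psme2 and Psme2b. The part of these measures in the lower levels was not tested.

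Genes of the wider pathway, on lists that were also known to give results in these data, are set beside the members. Of 31 measured interferon response genes in T-like cells, 12 were at least 1.5-fold lower in the aged spleen and 2 higher, against 8.72% and 8.17% of all genes, with a median of -0.50 (log2) against -0.09 for all genes. The guanosine triphosphatase Ifi47 was 0.45-fold, and the nucleic acid sensor Zbp1 0.61-fold. In NK-like cells 12 of 29 were lower and 1 higher, against 10.9% and 6.96% of all genes (median -0.47 against -0.12), with the antiviral Mx1 at 0.26-fold. In B-like cells 20 of 29 were lower and none higher, against 9.32% and 5.34% of all genes (median -0.69 against -0.12), with Ifit3 at 0.36-fold and Usp18, a protease that removes Isg15 from proteins, at 0.34-fold. Among 11 genes of peptide loading on class I, none passed 1.5-fold in T-like and NK-like cells (medians -0.23 and -0.10), and in B-like cells 1 did, the chaperone Pdia3 at 0.59-fold. Of 7 measured alpha subunits of the core, Psma3 was higher in each class (1.55-fold, 1.58-fold and 1.65-fold), and Psma5 was 0.63-fold in NK-like and 0.60-fold in B-like cells. The alpha subunits had medians of -0.357, -0.274 and -0.466 in T-, NK- and B-like cells. In this order, assembly chaperones had -0.397, -0.312 and -0.337, and ATPase subunits of the 19S cap -0.150, -0.182 and -0.355. Other 19S subunits had -0.218, -0.239 and -0.279, and other activators with the inhibitor -0.100, -0.021 and -0.164. Of the 4 beta subunits with no immune form, none passed 1.5-fold (medians from -0.205 to -0.309).

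In microglia-like cells 0 of 8 alpha and 0 of 4 beta subunits were past 1.5-fold between the ages, against 17.3% of all genes, with medians of -0.14 and -0.22 (log2) against 0.08 for all genes. Of 15 subunits of the 19S cap outside the ATPase ring, 1 was higher, the ubiquitin receptor Adrm1, with 43.9 CPM against 6.47 (6.78-fold). Of the 11 class I loading genes, 4 were higher and 2 lower, against 12.6% and 4.78% of all genes. The class I light chain B2m was 2.49-fold higher, and the class I heavy chains H2-K1 1.94-fold and H2-D1 1.73-fold, while the chaperone Calr was 0.57-fold. Of 30 measured interferon response genes 3 were higher and 3 lower (median 0.15 against 0.08 for all genes), with the chemokine Cxcl10 at 0.43-fold, Isg15 at 0.50-fold and Ifi27l2a at 1.65-fold. In border macrophage-like cells B2m was 2.14-fold, H2-K1 1.67-fold and Adrm1 3.24-fold higher, and 15 of 31 interferon response genes were lower and 2 higher, against 9.57% and 18.3% of all genes (median -0.50 against 0.06), with Isg15 at 0.24-fold.

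T-like cells of the aged brain, 92 cells of which 83 lay in cluster 6, had more of 6 members than the 1714 T-like cells of the aged spleen, which were spread over clusters 6, 16, 17 and 19. Psmb8 was 2.06-fold higher (1.76 to 2.40), Psmb10 1.82-fold (1.35 to 2.41), Psmb5 2.06-fold (1.44 to 2.85), Psmb6 1.59-fold (1.10 to 2.23), Psme1 1.73-fold (1.45 to 2.06) and Psme2b 3.49-fold (1.86 to 6.05). Psmb9 was 1.25-fold, Psmb7 1.09-fold and Psme2 1.26-fold, with 1 inside each interval. The 6 of 9 genes at least 1.5-fold higher compare with 28.9% of all genes, and the 6 intervals above 1 with 17.8%. The summed subunit ratio was 1.15-fold (0.896 to 1.49). Of 29 interferon response genes 21 were higher and 2 lower, against 28.9% and 23.8% of all genes (median 1.14 against 0.17), led by Mx1 (14.7-fold) and the antiviral enzyme Rsad2 (9.03-fold).

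RNA of marker genes of other cell types was also counted in these T-like cells. All 11 microglia markers were detected in them, with a sum of 5346 CPM, against 32.9 in T-like cells of the aged spleen and 28519 in microglia-like cells of the same library. The NK list summed to 1830 CPM against 460, with 10 of 10 genes detected, and the T list to 2880 against 5405, with 12 of 12. In cluster 6 the NK list scored second, with 1.08 against 1.70 for the T list. Whether the class includes NK-like cells was not tested. The choroid list summed to 3223 CPM against 2.22. Spi1, a factor of myeloid and B cells, stood at 77.7 CPM against 3.95. Psmb8 stood at 219 CPM in microglia-like cells and 218 in free RNA of the library, both below the 618 of the T-like cells. The part of this RNA in the other values was not tested.

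Only 18 NK-like cells were found in the aged brain. Psmb8 stood at 514 CPM in them and at 284 in the aged spleen, 1.81-fold (1.19 to 2.65), and Psme1 at 590 and 271, 2.18-fold (1.47 to 3.11). Of the 8 members with at least 50 UMIs over both libraries, 3 were at least 1.5-fold higher and 1 lower, where 22.4% and 38% of all genes were. The summed subunit ratio was 1.14-fold (0.611 to 2.23).

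Cells with interferon-response RNA were compared with other cells of the same class and library. The split used 8 interferon response genes and none of the members, after cells with at least 1000 UMIs were thinned to 1000. In the young brain, 186 microglia-like cells with such a UMI had Psmb8 at 360 CPM and 2355 without at 200, 1.80-fold (1.38 to 2.34), and Psme1 at 376 and 220, 1.71-fold (1.31 to 2.20). In the aged brain, 487 cells with and 5597 without had 263 and 211 CPM of Psmb8, 1.24-fold (1.03 to 1.49), and 339 and 254 of Psme1, 1.33-fold (1.13 to 1.57). Whether the split differed between the ages was not tested. Among all genes 8.14% in the young and 6.02% in the aged brain were at least 1.5-fold higher. Psmb8 and Psme1 reached that fold in the young but not in the aged brain. How many of all genes have an interval above 1 on this split was not computed for any class. Psmb9 was 0.882-fold (0.431 to 1.62) and 1.2-fold (0.824 to 1.69) in the young and aged brain, and intervals of all 3 constitutive subunits held 1 in both.

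Border macrophage-like cells of the young brain had Psmb8 at 1.96-fold (1.10 to 3.49) and Psme1 at 1.77-fold (1.02 to 3.07) on this split, from 59 cells with and 120 without. In those of the aged brain Psme2 was 1.61-fold (1.08 to 2.37). T-like cells of the young spleen had Psmb10 at 1.52-fold (1.08 to 2.11) and Psme2 at 1.64-fold (1.24 to 2.16), and B-like cells of the young spleen Psme1 at 1.54-fold (1.14 to 2.05), Psmb6 at 2.03-fold (1.33 to 2.99) and Psme2b at 2.19-fold (1.01 to 4.25). Intervals of the other members held or touched 1 in these classes, with Psmb8 at 0.996-fold (0.709 to 1.37) in B-like cells of the young spleen. Among all genes, 11.9% and 5.38% were at least 1.5-fold higher in border macrophage-like cells of the young and aged brain. The share was 9.22% in T-like and 11.9% in B-like cells of the young spleen. No interval of a member lay above 1 in NK-like cells of either spleen or in T-like and B-like cells of the aged spleen. Whether the split differed between the spleens was not tested.

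Microglial cluster 12, led by Cxcl10, Ccl12 and Ifit3, is not independent of the split. The split genes Ifit2, Ifit3, Usp18 and Rsad2 were among its leading genes, and the members were not left out of the clustering. None of its 10 leading genes was a microglia marker. Its 84 aged and 26 young cells had Psmb8 at 393 (316 to 483) and 484 CPM (329 to 687), Psme1 at 489 and 656, and Psmb10 at 188 and 141. The summed subunit ratio was 2.84 in its aged cells and 2.35 in its young ones, above the 1.60 and 1.36 of the whole class.

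**Figure D5:**
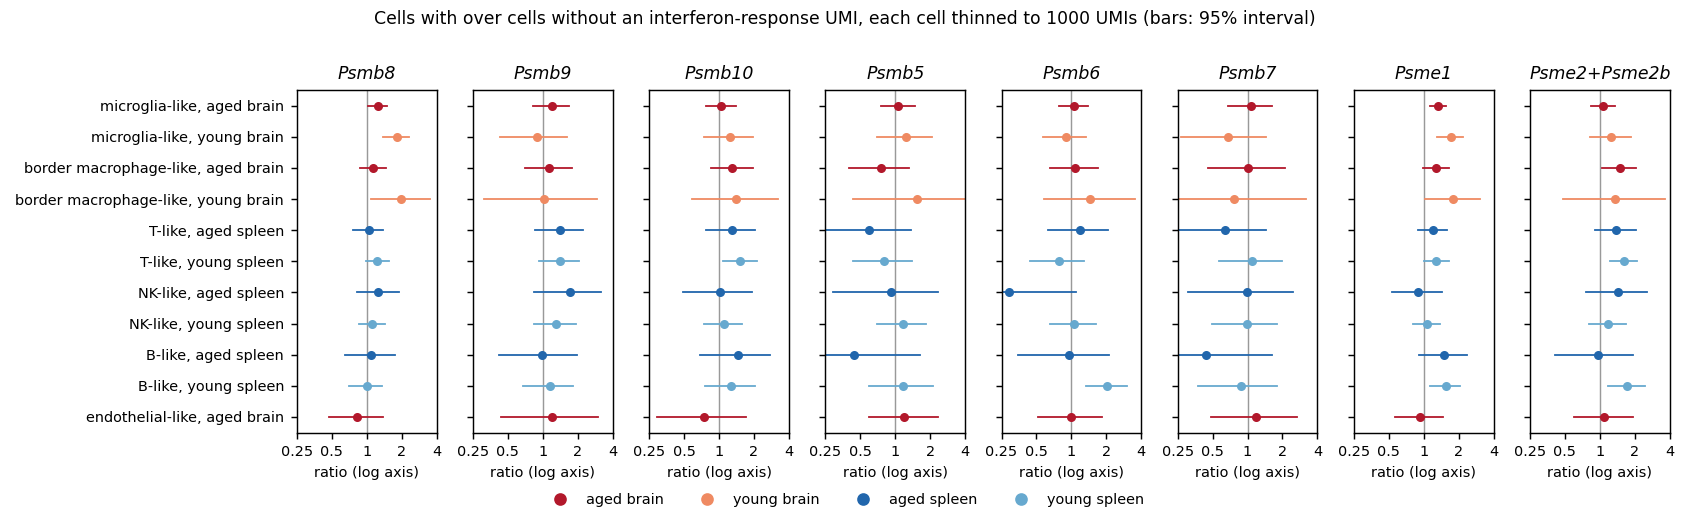
Ratio of the level in cells with an interferon-response UMI to that in cells without, after thinning to 1000 UMIs (log axis), by class and library, with 95% intervals as bars. The interval lies above 1 for Psmb8 and Psme1 in microglia-like cells of both brain libraries.

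Across the 19 combinations of class and library, the genes with the most similar levels were ranked among 11472 by Pearson's r of log2(CPM + 10). The points share libraries, depth and free RNA, and r is a description. Psmb8 was followed most closely by Tap1 (0.918), and Ptpn18 (0.899), Psmb9 (0.892) and Psmb10 (0.892) were also among its closest 5. Its own counterpart Psmb5 ranked 5022, Psmb6 5549 and Psmb7 3475. Psmb9 was closest to Tap1 (0.945), the gene it overlaps, then to H2-D1 (0.898), Psmb8 (0.892), St8sia4 (0.883) and Rpp21 (0.878). Psmb10 was closest to Cdk4 (0.934) and Psme1 (0.925), and Psme1 to Tbca (0.951) and Cdk4 (0.950). The sum of Psme2 and Psme2b was closest to Kmt2b (0.949) and the peptide trimming enzyme gene Erap1 (0.938).

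The authors' deposited tables list genes per cluster of a library, each cluster against the other cells. For the aged brain, the authors' deposited table lists 6 members in cluster 11, a cluster led by Ccl5 and Nkg7, with Psmb8 detected in 75% of its cells and 21.3% of the others. In cluster 4, led by Cd74 and H2-Eb1, the authors' deposited table gives Psmb8 in 47.7% and 20.1%. For the young spleen, the authors' deposited table lists Psmb8, Psmb10, Psme1 and Psme2 in cluster 3, led by Cxcr6, with Psmb8 in 89.7% and 59.5%. The constitutive subunits Psmb5 and Psmb6 appear in clusters led by cycling genes in the authors' deposited tables of both spleens, with Psmb5 in 55.2% and 19.8% in the aged and 59.3% and 27.1% in the young spleen. For that young spleen cluster, the authors' deposited table also lists Psme2, in 66% and 38.2%. Psmb8 and Psme2 are listed for a young brain cluster led by Mki67. The part of depth per cell in these shares was not tested.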

How the data were processed

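The deposited matrices hold raw UMI counts per gene and barcode, not filtered for cells, with 31053 genes and 6794880 barcodes and software version 3.1.0 per the file headers. The labels' protocols give a 10x 3′ kit of version 2, and GRCh38 (a human build, against the mouse gene identifiers) and Cell Ranger 1.3.1 stand in the submitters' processing notes. The annotation is not given in the sources used. The authors' deposited tables give a log ratio, taken here as a natural log because its base is not stated, and the fraction of cells with each gene detected. Only log ratios above 0.25 are listed there.

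A barcode was kept as a cell with 500 or more UMIs, 250 or more genes and a mitochondrial share up to 10%, if it also passed 10% of the 99th percentile among the 3000 largest, or had a profile unlike barcodes of at most 100 UMIs (10000 simulations, false discovery rate 0.01). Scrublet in scanpy 1.11.5 removed 1179 and 615 doublets in the aged and young brain and 160 and 231 in the aged and young spleen. In the brain libraries its own threshold marked under 0.5%, so top scores were taken out at a rate of 0.8% per 1000 cells. After scaling to 10000 UMIs per cell, 2000 variable genes, 30 components and 15 neighbours gave 26 Leiden clusters (resolution 1.0). They were named by 21 marker lists, with rules on score gaps (0.5), markers at least 2-fold above the other cells (70%) and cycling genes set after the data were seen. A low-RNA cluster of 2403 aged and 334 young brain cells stayed unnamed.

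UMIs were summed per class and library. CPM has exact Poisson intervals, ratios exact conditional binomial ones and shares exact Clopper-Pearson ones, computed with scipy 1.17.1. Only the ratio intervals were run on simulated data. Those data were Poisson counts, the model behind the intervals, so the run cannot show spread between cells or libraries. The members and the lists were chosen with earlier results of these data known. All 9 members were named. From each of 11 lists, members past 1.5-fold with the interval on 1 side of 1 could be named, at most 4 per comparison and in the order of the bound nearest to 1, and the 5 genes most like a member among those with at least 200 UMIs were ranked. Alternatives covered doublets, thinning, mitochondrial share, clustering, barcodes, folds, minimum counts and scaling. Some named genes are not reported here.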

Additional observations from a re-analysis of the deposited data

How the results depend on the processing

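With 1 library per group the spread between animals is unknown, and the number of UMIs in a class limits each interval. No paired analysis was possible because each group has 1 library. Of the alternatives for summed subunit ratios and counts past 1.5-fold, 74 stayed near the reported value and 22 moved. Of those for single genes or likeness, 295 stayed, 28 moved and 1 crossed 1. That one was Psmb9 of NK-like cells in aged brain against aged spleen, 1.038-fold with scored doublets kept and 0.539-fold without them.

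Thinning cells with at least 1000 UMIs to 1000 gave summed ratios, aged against young spleen, of 0.9967 in T-like and 1.125 in NK-like cells. A mitochondrial limit of 5% gave 0.8306 in B-like cells. Single clusters, added after the data were seen, gave 0.9156 in cluster 0 and 0.9724 in cluster 4 of microglia-like cells, 1.054 in cluster 6 and 1.034 in cluster 19 of T-like cells, and 1.516 in cluster 22 of B-like cells.

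Members past 1.5-fold in border macrophage-like cells numbered 1 at a mitochondrial limit of 5%, 1 with doublets kept, 0 after thinning and 1 at a fold of 2. After thinning, Psme2b had under 50 UMIs there and was not counted. In T-like cells of the spleen they numbered 5 after thinning, 0 at a fold of 2 and 1 with median-of-ratios scaling. In NK-like cells they numbered 1 at 5% and 2 after thinning, and in B-like cells 1 after thinning, 0 at a fold of 2 and 0 with median-of-ratios scaling. At a fold of 2, aged brain against aged spleen gave 3 in T-like and 1 in NK-like cells. The cause of the other shifts was not tested.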

Other observations

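Psmb8 was higher in the aged spleen in a pair of unnamed clusters. In cluster 13, led by the granule genes Prtn3, Mpo and Elane, Psmb8 was 1.23-fold the young level (1.04 to 1.45), with 550 CPM in 167 aged and 446 CPM in 197 young cells. Psmb9 was 0.747-fold (0.586 to 0.952) and Psme1 0.834-fold (0.701 to 0.993) there, while Psmb5 was 1.56-fold and the summed subunit ratio 0.678-fold (0.553 to 0.831). In cluster 10, led by Car1 and cycling genes such as Top2a and Mki67, Psmb8 stood at 348 and 291 CPM in the aged and young spleen, Psmb5 was 0.839-fold (0.71 to 0.995), and the summed ratio was 1.19-fold (1.03 to 1.36).

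For a cluster led by Hmox1 and C1qa in the aged spleen, the authors' deposited table lists Psmb8, Psmb10 and Psme1 as higher than in other cells. Each was nevertheless detected in a smaller share of its cells than of the others. The shares were 25.1% against 54% for Psmb8, 10.9% against 28.9% for Psmb10 and 23.2% against 49.5% for Psme1. The part of depth per cell in these values was not tested.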
